A study of Mus musculus with 2 samples.

Results

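The genes described were 5 members of the Ly6 family, Ly6a, Ly6c1, Ly6c2, Ly6d and Ly6e, found by their symbols among the 32285 genes of single-cell RNA libraries from mouse mammary gland. The adult wild-type female mice were 9 to 10 weeks old by the sample labels and 8 to 10 weeks old by the protocol. The library labelled Ctrl came from control mice, and the library labelled CL from mice given clodronate liposomes, particles that phagocytes take up and that kill them. Each group had 1 library, the number of mice in it was not given in the sources used here, and both libraries came from mammary cells sorted to keep CD45+ immune cells and cells without CD31 and TER119, so that endothelial cells were those that passed a gate meant to remove them. With 1 library per group there was no test between conditions, and every interval below is an exact 95% interval for counting error alone. The question asked of each gene was where in the gland it was expressed, and whether its level within a cell class differed between the libraries.

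Ly6 proteins are small, disulfide-rich domains, most of them held on the outer cell surface by a GPI lipid anchor, and their mouse genes lie together on chromosome 15. Ly6a encodes Sca1, the surface protein by which luminal cells of the mouse mammary gland are commonly sorted into a Sca1 high, hormone-responsive fraction and a Sca1 low fraction. Ly6c1 and Ly6c2 encode the near-identical proteins that together make up the Ly6C antigen of monocytes, T cell subsets and endothelium, Ly6d is known as a marker of early B cell progenitors and of some epithelia, and Ly6e is a widely expressed, interferon-inducible member with a role in virus entry. Interferon raises Ly6a and Ly6C on many cell types.

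The 5 genes lay within 350 kb of chromosome 15 in the mouse genome build GRCm38, an interval with 23 annotated genes of which 13 are protein coding. Ly6d (ENSMUSG00000034634) is annotated at chr15:74762056-74763620 on the minus strand with 3 exons, and Ly6e (ENSMUSG00000022587) at chr15:74955051-74959905 on the plus strand with 4 exons. Ly6a (ENSMUSG00000075602) follows at chr15:74994877-74998031 with 3 exons, Ly6c1 (ENSMUSG00000079018) at chr15:75044018-75048830 with 4 exons and Ly6c2 (ENSMUSG00000022584) at chr15:75108158-75111970 with 4 exons, all 3 on the minus strand. No annotated gene overlapped any of them.

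The Ly6c1 and Ly6c2 coding sequences, both 393 bases long, were equal at 384 bases, an identity of 97.7%. The first 120 coding bases hold 6 of the 9 differences and are shown because coding reads of these genes can be told apart only at such bases, which are in capitals.
Ly6c1: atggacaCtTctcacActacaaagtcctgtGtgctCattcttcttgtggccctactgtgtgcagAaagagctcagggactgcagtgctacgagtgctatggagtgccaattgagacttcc
Ly6c2: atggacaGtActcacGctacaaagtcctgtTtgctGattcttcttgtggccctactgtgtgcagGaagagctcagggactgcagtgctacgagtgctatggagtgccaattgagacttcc
Reads in these libraries came from the 3′ end of transcripts, and of the 351 windows of 50 bases in the last 400 bases, 82 of Ly6c1 and 88 of Ly6c2 also occurred in the other gene. No window of Ly6a, Ly6d or Ly6e occurred in another gene. The coding sequence of Ly6a was equal to that of Ly6c1 at 329 and to that of Ly6c2 at 328 of 393 aligned bases. The pairs with Ly6d or Ly6e had identities of 53.4% to 58.1% of the longer sequence. A part of the split between Ly6c1 and Ly6c2 may therefore depend on how multiply matching reads were counted, which was not tested.

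Upstream of their starts the near-identical genes were less alike. The 250 bases before each start are shown, on the minus strand of GRCm38.p6 (RefSeq), because Ly6c1 and Ly6c2 were found in different cell classes, and 164 of the 216 bases that could be aligned between them were equal. The first runs at chr15:75048838-75049087 and the second at chr15:75111972-75112221, and neither has capitals, which would have marked a motif.
Ly6c1: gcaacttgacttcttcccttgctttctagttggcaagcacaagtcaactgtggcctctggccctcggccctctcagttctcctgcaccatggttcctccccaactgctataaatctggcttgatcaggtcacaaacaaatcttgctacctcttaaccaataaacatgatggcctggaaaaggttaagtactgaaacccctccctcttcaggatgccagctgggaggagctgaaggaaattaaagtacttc
Ly6c2: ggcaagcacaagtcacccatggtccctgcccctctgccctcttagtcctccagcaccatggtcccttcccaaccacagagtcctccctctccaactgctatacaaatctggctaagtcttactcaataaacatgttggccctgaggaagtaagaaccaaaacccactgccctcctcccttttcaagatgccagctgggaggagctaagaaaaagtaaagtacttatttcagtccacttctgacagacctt
The letters GAAA, any 2 bases and GAAA, an interferon-stimulated response element, occurred 0 times on either strand of both windows. Of 32851 promoters of 300 bases, 3.44% held them, and no match says only that these letters are not in these windows. Ly6a, Ly6d and Ly6e are named only.

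Transcripts were counted as UMIs, molecular barcodes that mark single captured mRNA molecules, and a level is given in CPM, the usual scaling of a gene's UMIs by all UMIs, both summed over the cells of a class in 1 library. Since 1 molecule gives 1 UMI at its 3′ end whatever its length, these levels were set side by side without a length term. The libraries labelled Ctrl and CL held 118743318 and 155765480 UMIs in all, and 5937 and 8826 cells were kept with medians of 11351 and 10337 UMIs per cell. The 2 libraries had 18 barcodes in common on their deposited lists, and 22 among the columns used here. Clusters formed with the Ly6 genes left out were named by markers, and each name stands for cells like that type. There were 2163 Ctrl and 3010 CL hormone-responsive (HR) luminal-like cells, 2597 and 3888 secretory luminal-like, 408 and 444 basal-like, 253 and 271 fibroblast-like, 213 and 734 T and NK-like, 62 and 273 macrophage-like and 53 and 61 endothelial-like cells. In each class and library at least 8 markers of its list were highest in that class, and 3 clusters with 333 cells stayed unnamed. Over all cells the 13 macrophage markers had a summed level of 143 CPM (Ctrl) and 379 CPM (CL), against the direction of the label, so directions below are those of the libraries as labelled. Of the 2 macrophage-like clusters, cluster 0, high in complement C1q genes, took 0.691% of cells in Ctrl and 0.487% in CL, the direction of the label, and cluster 22, led by genes that neutrophils and monocytes share, took 0.354% and 2.61%. The shares of cluster 0 rest on 41 and 43 cells. Basal-like cells took 6.87% of cells in Ctrl and 5.03% in CL. Macrophage-like cells as a whole took 1.04% in Ctrl and 3.09% in CL. The paper reports lower shares of both basal cells and macrophages after clodronate liposomes. The basal-like share here thus runs the same way and the macrophage-like share the other way. Whether the labels of the 2 libraries were exchanged was not tested. Droplets of 100 to 300 UMIs, taken to hold no cell, gave the composition of free RNA, and the free RNA level expected in a class is an upper estimate made from the luminal markers found in it.

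Ly6d was the most abundant member and was almost confined to HR luminal-like cells. These cells held 92.8% of its UMIs in Ctrl and 92.9% in CL, at 4510 CPM [4490, 4530] and 4606 CPM [4588, 4623], a log2 ratio of CL over Ctrl of 0.03 [0.02, 0.04]. Subtracting the expected free RNA, an upper estimate from secretory markers in these cells, gave -0.35. In droplets Ly6d stood at 2971 and 3548 CPM, more than in any class except the HR luminal-like cells. In secretory luminal-like cells the 243 CPM in Ctrl and 224 CPM in CL lay close to the 225 and 241 CPM expected from free RNA, and in basal-like (136 and 203 CPM), fibroblast-like (181 and 298 CPM), T and NK-like (149 and 189 CPM) and macrophage-like cells (128 and 168 CPM) Ly6d lay under the expected level. After each HR luminal-like cell was thinned to 7212 UMIs, Ly6d had a median of 29 UMIs per cell in Ctrl and 31 in CL. It had at least 1 UMI in 99.8% of these Ctrl cells and 100.0% of these CL cells.

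Ly6d also varied among the HR luminal-like clusters. Cluster 9, which had the secreted protein gene Wfdc2 and the fibrinogen gene Fgg among its leading genes, held 5103 CPM in Ctrl and 5756 CPM in CL. Cluster 11, led by the fibrinogen gene Fgb and the uroplakin gene Upk3a, held 4811 and 5314 CPM. Cluster 13, which had the highest mean doublet score of the class, held the least, at 2541 and 2854 CPM. Cluster 10, led by Gpx3 and the diamine oxidase gene Aoc1, held 4767 CPM in Ctrl and 3863 CPM in CL. Different clusters filled the class in the 2 libraries, since cluster 10 held 963 of the Ctrl cells but 120 of the CL cells, and cluster 11 held 193 and 1127.

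Ly6a, the Sca1 gene, was also highest in HR luminal-like cells by the mean of both libraries, although endothelial-like cells exceeded them in CL. HR luminal-like cells held it at 1635 CPM [1624, 1647] in Ctrl and 1646 CPM [1636, 1656] in CL, a log2 ratio of 0.01 [-0.00, 0.02]. Subtracting the expected free RNA, an upper estimate from secretory markers in these cells, gave -0.39. Cluster 13 of this class had the secretory class as the runner-up for its name, and it held 152 Ctrl and 517 CL cells. The subtracted ratio is therefore not read as a difference in expression. The class held 89.6% of the Ly6a UMIs in Ctrl and 82.8% in CL. Ly6a too differed between clusters of this class. In Ctrl it was 982 CPM in cluster 10, 1274 CPM in cluster 13, 1886 CPM in cluster 11, 2315 CPM in cluster 1 and 2451 CPM in cluster 9. In CL the same clusters held 988, 1093, 1726, 1661 and 2261 CPM, so that each cluster except cluster 10 was lower in CL while the class as a whole was equal. Without cluster 10 the class held 2108 CPM in Ctrl and 1667 CPM in CL, a log2 ratio of -0.34 [-0.35, -0.32]. Leaving out cluster 13 instead gave a log2 ratio of 0.12, and what made the class levels equal was not tested.

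Per cell, Ly6a was more uneven than Ly6e at a like mean. In HR luminal-like cells thinned to 7212 UMIs, Ly6a had a median of 8 UMIs in both libraries and a 90th percentile of 26, with a variance of 10.7 times the mean in Ctrl and 10.2 times in CL. Ly6e had medians of 10 and 11 UMIs and a variance of 2.13 and 2.09 times the mean. At least 1 UMI of Ly6a was seen in 91.7% [90.4, 92.9] of 1946 Ctrl cells and 94.2% [93.3, 95.1] of 2717 CL cells, against 95.5% and 96.4% without thinning, and 217 and 293 shallower cells were left out. In the 162 Ctrl cells with no Ly6a UMI, Ly6d averaged 23.6 UMIs, and in the 1299 cells with at least 5 it averaged 36.6. The CL cells gave 22.7 and 38.3 UMIs for the same comparison. The secretory markers went the other way, with 17.5 UMIs per cell at no Ly6a and 8.41 UMIs at 5 or more in Ctrl, and 31.0 and 14.8 UMIs in CL. Their part in the spread of Ly6a was not tested.

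**Figure D1:**
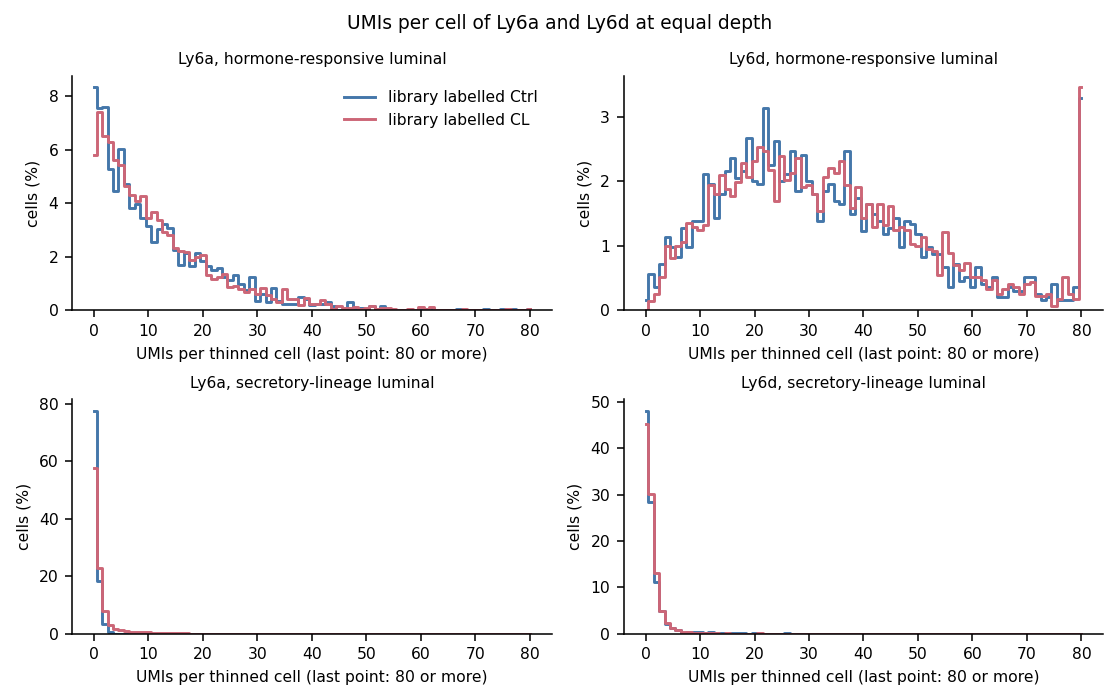
Share of cells (vertical axis, percent) by UMIs of Ly6a and Ly6d per thinned cell (horizontal axis, the last point being 80 or more) in hormone-responsive and secretory luminal-like cells of the libraries labelled Ctrl and CL. The HR luminal-like curves of both libraries lie close together, with Ly6a medians of 8 UMIs, and in secretory luminal-like cells the CL curve of Ly6a has a tail, with 243 cells of at least 5 UMIs against 2 in Ctrl.

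In secretory luminal-like cells Ly6a was higher in the library labelled CL. The summed UMIs were 1620 in Ctrl and 10463 in CL, or 54.3 CPM [51.7, 57.0] and 242 CPM [237, 246], which is 4.45-fold and a log2 ratio of 2.15 [2.08, 2.23]. The Ctrl level lay below the 93.1 CPM expected from free RNA and is read as background, and the CL level lay above the 92.8 CPM expected there. The log2 ratio of Ly6d in the same cells was -0.11 [-0.16, -0.07]. Per Ly6d UMI there were 0.414 Ly6a UMIs in Ctrl droplets and 0.386 in CL droplets, 0.224 [0.212, 0.236] in Ctrl secretory luminal-like cells and 1.08 [1.05, 1.11] in CL ones. The part of free RNA in the difference was not tested. A gene was compared where the library with more of it reached 50 CPM and 50 UMIs. Of the 3 members compared in this class, Ly6a alone was at least 2-fold higher in CL and none was 2-fold lower, against 1.14% and 0.069% of all 2899 genes compared (1.21% in either direction). The median log2 ratio was 0.32 over the members and 0.01 over all genes.

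The difference had 2 parts. Cluster 8, led by the lactoferrin gene Ltf and by interferon-inducible Cxcl9 and Gbp2, held 18 Ctrl and 838 CL cells, with Ly6a at 330 and 621 CPM. With 1 library per group a cluster that is almost all from 1 library may be a property of that library. Without it the class held 51.8 CPM in Ctrl and 118 CPM in CL, a 2.27-fold difference and a log2 ratio of 1.18 [1.10, 1.27]. Each of the other 4 secretory luminal-like clusters was higher in CL, at 48.1 and 70.5 CPM in cluster 2, 53.5 and 108 CPM in cluster 3, 55.8 and 127 CPM in cluster 5 and 44.6 and 130 CPM in cluster 7. Cluster 2, which had the milk protein genes Csn3 and Lalba among its leading genes, differed least. The Ctrl levels of these clusters and the CL level of cluster 2 lay under the level expected from free RNA in the class. They are therefore not read as expression.

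The share of secretory luminal-like cells with a Ly6a UMI differed in the same direction. No share expected from free RNA was computed, so these shares are not read as shares of cells that express Ly6a. The Ctrl level of this class and both basal-like levels lay under those expected from free RNA. After thinning to 5283 UMIs, 534 of 2376 Ctrl cells (22.5% [20.8, 24.2]) and 1485 of 3499 CL cells (42.4% [40.8, 44.1]) had a Ly6a UMI, against 40.6% and 57.8% without thinning. Basal-like cells, at medians of 8033 and 5832 UMIs, gave 14.3% and 15.5% after thinning to 2061 UMIs, a lower depth. At least 5 UMIs of Ly6a were found in 2 Ctrl cells (0.08%) and 243 CL cells (6.94%). Of the same cells, 51.9% and 54.7% had a Ly6d UMI.

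In basal-like cells Ly6a stood at 59.2 CPM in Ctrl and 154 CPM in CL, a log2 ratio of 1.38 [1.14, 1.61]. It was the 1 of 3 members compared that was at least 2-fold higher, against 1.13% of 2931 genes higher, 0.205% lower and 1.33% in either direction. Both levels lay under the 225 and 260 CPM expected from free RNA, Ly6d had a log2 ratio of 0.58 [0.41, 0.75], and the difference fell below 2-fold when cells of 200 genes or doublets were kept or each cell's CPM was averaged. Per Ly6d UMI the Ctrl cells had 0.435 [0.370, 0.510] Ly6a UMIs, close to their droplets, and the CL cells had 0.757 [0.669, 0.855], above theirs.

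Fibroblast-like cells carried Ly6a of their own in both libraries. Sca1 is known on adipose and mammary stromal progenitors, which also express Pi16 and Dpp4. Ly6a reached 424 CPM [395, 453] in Ctrl and 967 CPM [920, 1015] in CL, a log2 ratio of 1.19 [1.07, 1.31], above the 224 and 386 CPM expected from free RNA. Cells with a UMI of Pi16 or Dpp4 (88 in Ctrl and 68 in CL) held 533 and 996 CPM, and cells without (165 and 203) held 337 and 950 CPM. The 2 kinds thus differed in Ctrl and were alike in CL. A gate on 1 UMI follows depth, and median UMIs were 9657.5 and 8415.5 in cells with, against 5922 and 4047 in cells without. The part of depth in this was not tested. Ly6d, a luminal gene here, was at 240 and 146 CPM in cells with Pi16 or Dpp4. Its log2 ratio there was -0.72, opposite in sign to the 0.901 of Ly6a. In cells without, Ly6d was at 134 and 385 CPM, a log2 ratio of 1.52 beside 1.495 for Ly6a. The part of luminal RNA in the Ly6a levels was not tested. Among clusters, cluster 17, led by the cytokine genes Il6 and Ccl2, held the most with 1174 and 1567 CPM. Cluster 4, led by collagen genes, held 308 and 888 CPM, and cluster 23, with Ccl11 and Apod among its leading genes, held 62 and 159 CPM on 4 and 10 UMIs. Of 4 members compared, Ly6a and Ly6c1 were at least 2-fold higher in CL, against 1.66% of 3320 genes higher, 1.23% lower and 2.89% in either direction, with a median log2 ratio of 1.03 over the members and -0.01 over all genes. By the mean of each cell's CPM the Ly6a log2 ratio was 0.92, under 2-fold.

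Endothelial-like cells held Ly6a at 528 CPM in Ctrl and 1723 CPM in CL, a log2 ratio of 1.71 [1.45, 1.97]. The expected free RNA was 337 and 675 CPM, and the luminal markers that give it stood at 27.4% of their droplet level in Ctrl and 49.4% in CL. In cluster 14, whose leading genes Selp, Sele and Ackr1 mark venous endothelium, Ly6a was 836 and 1957 CPM, and in cluster 19, led by Nts and Mmrn1, a gene of lymphatic endothelium, it was 98 and 64 CPM. Ly6d differed beside it, with 145 CPM (39 UMIs) in Ctrl and 1024 CPM (514 UMIs) in CL, a log2 ratio of 2.82 [2.35, 3.33], but stayed under the 814 and 1751 CPM expected from free RNA. Of 4 members compared, Ly6a and Ly6d were at least 2-fold higher in CL, against 5.72% of 1451 genes higher, 3.51% lower and 9.24% in either direction. The part of luminal RNA in both was not tested.

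T and NK-like cells held Ly6a at 118 and 160 CPM and macrophage-like cells at 83.7 and 189 CPM, log2 ratios of 0.44 [0.16, 0.73] and 1.17 [0.69, 1.69]. All 4 levels lay under the 225 to 264 CPM expected from free RNA in these classes, an upper estimate that Ly6d also lay under. T and NK-like cells had 0.790 [0.622, 1.00] Ly6a UMIs per Ly6d UMI in Ctrl and 0.847 [0.759, 0.944] in CL. Macrophage-like cells had 0.655 [0.423, 1.00] and 1.12 [0.974, 1.29], and droplets 0.414 and 0.386. These levels are therefore not read as free RNA alone, and its part in them was not tested. Ordered by the mean of both libraries, Ly6a ran from HR luminal-like through endothelial-like and fibroblast-like to secretory luminal-like, T and NK-like, macrophage-like and basal-like cells. In that order the only neighbours whose ranges over the libraries did not overlap were fibroblast-like and secretory luminal-like cells.

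**Figure D2:**
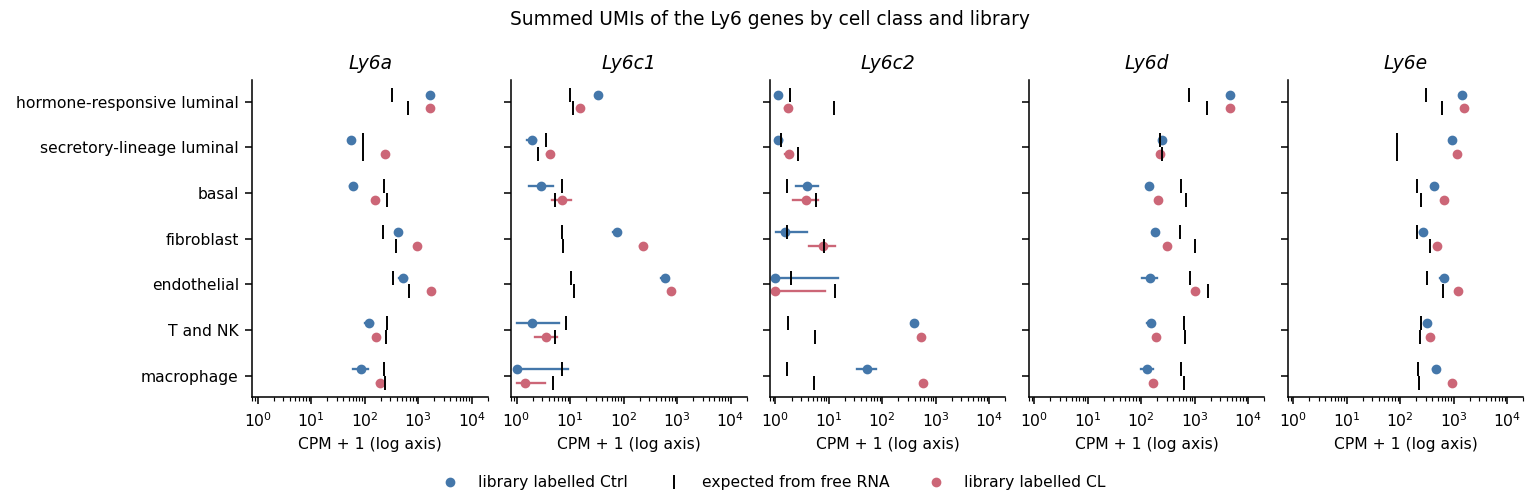
Level of each Ly6 gene (horizontal axis, CPM + 1 on a log scale) in 7 cell classes (rows) of the libraries labelled Ctrl and CL, with bars for exact 95% counting intervals and black ticks at the level expected from free RNA. Ly6d exceeds its ticks clearly in HR luminal-like cells alone, Ly6a exceeds them in HR luminal-like, fibroblast-like and endothelial-like cells of both libraries and in secretory luminal-like cells of CL, and Ly6c2 stands high in T and NK-like and macrophage-like cells.

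Ly6e was the member most evenly spread over the classes. HR luminal-like cells held 1456 CPM in Ctrl and 1561 CPM in CL, and secretory luminal-like cells 941 and 1170 CPM, more than 10-fold above the 87 CPM expected from free RNA in either library. The log2 ratios were 0.10 [0.09, 0.12] and 0.32 [0.29, 0.34]. Endothelial-like cells held 658 and 1203 CPM, a log2 ratio of 0.87 [0.63, 1.12], and macrophage-like cells 473 and 913 CPM, a log2 ratio of 0.95 [0.74, 1.16]. Lower levels were found in basal-like cells, at 434 and 648 CPM, in fibroblast-like cells, at 262 and 481 CPM, and in T and NK-like cells, at 323 and 366 CPM. The Ly6e level expected from free RNA was 209 and 360 CPM in fibroblast-like, 247 and 238 CPM in T and NK-like and 315 and 631 CPM in endothelial-like cells, so that fibroblast-like and T and NK-like cells lay nearest to it. Ly6e was thus higher in the library labelled CL in all 7 classes, under 2-fold in each. In HR luminal-like cells, subtracting the expected free RNA, an upper estimate, turned the log2 ratio to -0.27. HR luminal-like cells did not overlap the next class over the libraries, and every later pair of neighbours in the order overlapped.

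Ly6c1 and Ly6c2, the pair most alike in sequence, were found in different classes. Ly6c1 was highest in endothelial-like cells, at 584 CPM (157 UMIs) in Ctrl and 781 CPM (392 UMIs) in CL, a log2 ratio of 0.42 [0.15, 0.70]. Within cluster 14 it was 996 and 891 CPM, a log2 ratio of -0.16 [-0.43, 0.12], and in cluster 19 it was 8.9 CPM in Ctrl with no UMI in CL, so the sign of the class ratio turned with cluster 19, which held 19 and 10 cells. Ly6c2 had 0 UMIs in endothelial-like cells of both libraries.

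Fibroblast-like cells came second for Ly6c1, at 73.1 CPM in Ctrl and 226 CPM in CL, a log2 ratio of 1.63 [1.35, 1.92], against 6.1 and 6.3 CPM expected from free RNA. Cells with Pi16 or Dpp4 held 110 and 266 CPM, and cells without held 43.8 and 203 CPM. By cluster it was 233 and 533 CPM in cluster 17, 48.3 and 178 CPM in cluster 4, and cluster 23, with 19 and 22 cells, had 0 UMIs, which allows up to 57.5 and 58.8 CPM. Cluster 17 thus held the most of both Ly6a and Ly6c1. After thinning to 1497 UMIs, 7.8% of the Ctrl cells and 20.1% of the CL cells had a Ly6c1 UMI.

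HR luminal-like cells had Ly6c1 at 31.9 CPM in Ctrl and 14.7 CPM in CL, a log2 ratio of -1.12 [-1.24, -0.997], under the 50 CPM needed for a comparison by fold. Droplets held Ly6c1 at 33.7 CPM in Ctrl and 22.3 CPM in CL, lower in CL as well, and the level expected from free RNA in these cells was 8.9 and 10.6 CPM. Cluster 10 held 12.3 CPM in Ctrl and 10.0 CPM in CL, and without it the class held 46.1 and 14.8 CPM, a log2 ratio of -1.64 [-1.76, -1.51]. This low level still made up 73.7% of all Ly6c1 UMIs in Ctrl and 45.5% in CL. Clusters 1 and 9 held 56.8 and 46.4 CPM in Ctrl and 22.3 and 18.1 CPM in CL. Of the 3 members that could be compared in HR luminal-like cells, 0 were at least 2-fold higher in CL, against 0.415% of 2892 genes, and 0 were 2-fold lower, against 0.968% of genes (1.38% in either direction).

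Ly6c2 was a gene of lymphoid and myeloid cells. T and NK-like cells held 388 CPM (421 UMIs) in Ctrl and 520 CPM (1992 UMIs) in CL, a log2 ratio of 0.42 [0.27, 0.58]. Cluster 20, which took 80 of 213 Ctrl cells and 427 of 734 CL cells, held 704 and 681 CPM, a log2 ratio of -0.05 [-0.23, 0.14]. Cluster 18, with 133 and 307 cells and led by Gzma, held 193 and 304 CPM, a log2 ratio of 0.66 [0.37, 0.95]. Cells with UMIs of the T cell receptor complex (Cd3d, Cd3e or Cd3g) and of Cd8a or Cd8b1, but not Cd4, held the most, 825 and 971 CPM in 55 and 223 cells, a log2 ratio of 0.23 [0.04, 0.43], where Ly6C is known as a marker of activated and memory CD8 T cells. NK-like cells, with Ncr1 or Klrb1c and no Cd3 gene, held 195 and 342 CPM in 29 and 73 cells, and CD4 T-like cells 127 and 38 CPM on 3 and 9 UMIs. After thinning to 2820 UMIs, 57.1% and 68.4% of the CD8 T-like cells had a Ly6c2 UMI. Of 4 members compared in T and NK-like cells, 0 were at least 2-fold higher in CL, against 0.192% of 3126 genes, and 0 were 2-fold lower, against 0.896% of genes (1.09% in either direction).

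In macrophage-like cells Ly6c2 stood at 50.6 CPM (23 UMIs) in Ctrl and 585 CPM (1319 UMIs) in CL, 11.6-fold and a log2 ratio of 3.53 [2.94, 4.19]. All of these UMIs lay in cluster 22, led by Lyz2, S100a9 and S100a8, genes of monocytes and neutrophils, which held 21 Ctrl and 230 CL cells. Cluster 0, high in complement C1q genes, held 41 and 43 cells and 0 UMIs of Ly6c2 in both. Within cluster 22 the levels were 191 and 755 CPM, a log2 ratio of 1.98 [1.39, 2.64]. Ly6C high is the usual mark of classical monocytes newly come from blood. Ly6a in cluster 22 was 74.8 and 218 CPM and in cluster 0 was 86.9 and 87.1 CPM. Ly6e was 396 and 827 CPM in cluster 0 and 690 and 937 CPM in cluster 22. Of 4 members compared, Ly6a and Ly6c2 were at least 2-fold higher in CL, against 10.9% of 2443 genes higher, 5.98% lower and 16.9% in either direction.

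**Figure D3:**
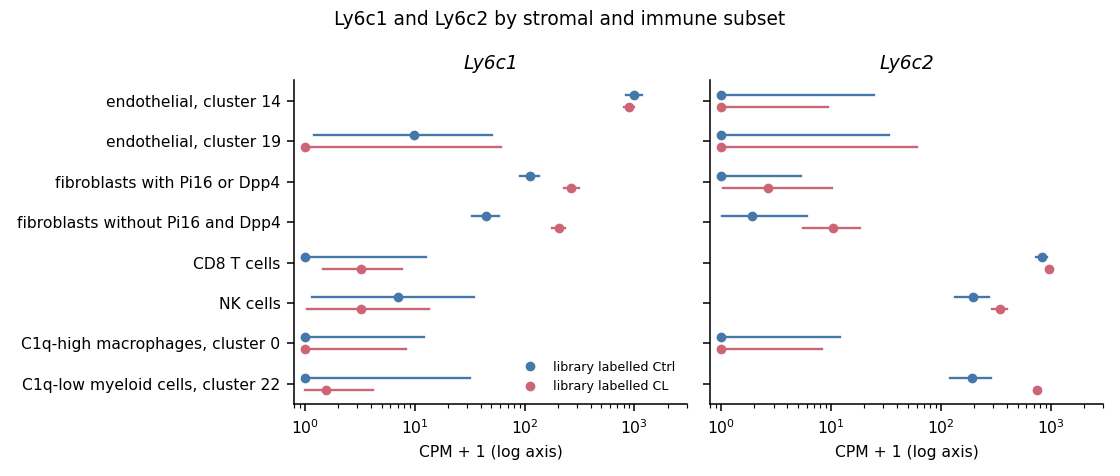
Levels of Ly6c1 and Ly6c2 (horizontal axis, CPM + 1 on a log scale, with exact 95% counting intervals) in subsets (rows) of endothelial-like, fibroblast-like, T and NK-like and macrophage-like cells in the libraries labelled Ctrl and CL. Ly6c1 is high in endothelial cluster 14 and in fibroblast-like cells, and Ly6c2 in CD8 T-like cells and in cluster 22, with 0 UMIs in cluster 0.

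**Figure D4:**
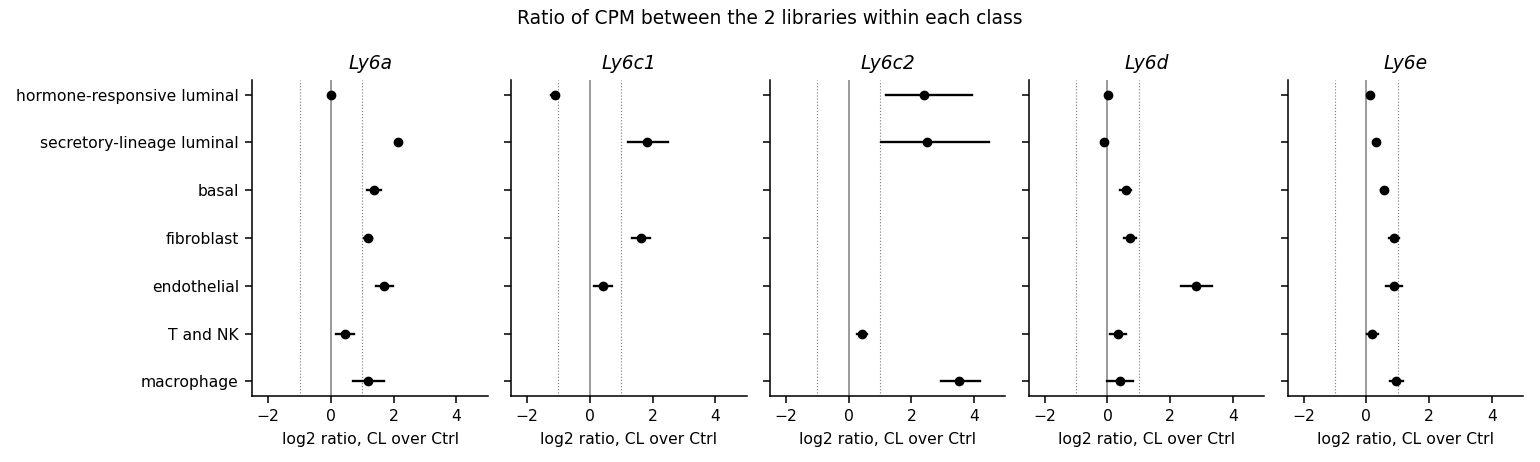
Log2 ratio of CL over Ctrl (horizontal axis) for each Ly6 gene and cell class with at least 30 UMIs in both libraries summed, with exact 95% intervals for counting error and dotted lines at 2-fold. Ly6a passes 2-fold upward in 5 classes and lies at 0.01 in HR luminal-like cells, and Ly6e lies between 0.10 and 0.95 in all classes.

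The Ly6 genes were then set beside 18 interferon response genes, a list that holds none of the members. In secretory luminal-like cells the summed level of the list was 361 CPM in Ctrl against 1629 CPM in CL, and 9 of its 10 comparable genes were at least 2-fold higher in CL, among them the GTPase genes Gbp2 (21.6 and 471 CPM) and Iigp1 (6.94 and 78.3 CPM). Another GTPase gene, Igtp (4.53 and 31.1 CPM), was under the minimum for a comparison. In basal-like cells it summed to 323 and 1795 CPM, with 7 of 8 genes 2-fold higher. In fibroblast-like cells it summed to 1203 and 3049 CPM, with 9 of 12 higher, among them Gbp2 (148 and 639 CPM) and Bst2 (126 and 447 CPM). In endothelial-like cells 3 of 9, in macrophage-like cells 5 of 8, in T and NK-like cells 1 of 9 and in HR luminal-like cells 1 of 5 were 2-fold higher, and none was 2-fold lower in any of the 7 classes. The order of the classes by list ratio was not that by Ly6a ratio. HR luminal-like (list log2 0.32) and T and NK-like cells (0.43) were lowest in both, but endothelial-like cells had a list ratio of 0.93 and a Ly6a ratio of 1.71, and basal-like cells 2.47 and 1.38.

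Cells were divided by their own interferon list level, below 100, 100 to 500, 500 to 2000 and at least 2000 CPM. In CL secretory luminal-like cells Ly6a was 74.4, 77.6, 151 and 611 CPM over these 4 ranges, and in Ctrl 55.2, 47.3, 67.1 and 273 CPM. Below 500 CPM of the list both libraries lay under the Ly6a level expected from free RNA in the class as a whole. Ctrl did so from 500 to 2000 CPM as well. The ranges held 189, 903, 1913 and 883 CL cells and 530, 1612, 431 and 24 Ctrl cells, so 22.7% of CL cells but 0.924% of Ctrl cells were in the highest. In Ctrl, 1 cell of the class had 29 Ly6a UMIs after thinning and the next highest had 6. Whether that cell lay in the highest range or in cluster 8 was not examined. Within these ranges Ly6a had log2 ratios of 0.43, 0.72, 1.17 and 1.16, but the libraries were not matched inside a range. In the third range the list itself was at 728 CPM in Ctrl and 1059 CPM in CL. It was also higher in CL from 100 to 500 CPM. In the lowest and highest ranges the list was higher in Ctrl, at 5787 CPM against 4295 CPM in the highest. In CL basal-like cells the Ly6a levels were 57.0, 64.4, 121 and 374 CPM. In Ctrl basal-like cells they were 65.8, 49.7 and 72.0 CPM over the lower 3 ranges. The log2 ratios in these 3 ranges were -0.21 [-1.03, 0.55], 0.37 [-0.10, 0.83] and 0.75 [0.24, 1.28]. Of CL secretory luminal-like cells thinned to 5283 UMIs, the 2014 with no Ly6a UMI had 6.08 UMIs of the list per cell, the 1242 with 1 to 4 had 8.42 UMIs and the 243 with 5 or more had 25.8 UMIs, while Ly6d averaged 1.10, 1.36 and 1.51 UMIs.

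Fibroblast-like cells gave a like order. Ly6a in Ctrl was 103, 182, 460 and 985 CPM over the 4 ranges, and in CL 157, 760 and 1228 CPM over the upper 3, so that within ranges the log2 ratios were -0.21, 0.72 and 0.32. Ly6c1 in Ctrl was 5.4, 11.7, 105 and 162 CPM and in CL 50.1, 151 and 302 CPM over the upper 3. In HR luminal-like cells Ly6a in CL was 842, 1174, 1730 and 2623 CPM, and in Ctrl 1314, 1469, 1700 and 1303 CPM, the last from 21 cells. Ly6e in secretory luminal-like cells was 813, 924, 1117 and 1333 CPM in Ctrl and 791, 961, 1205 and 1339 CPM in CL, and within ranges its log2 ratios were -0.04, 0.06, 0.11 and 0.01. Ly6c2 in CL macrophage-like cells was 103, 296 and 925 CPM over the upper 3 ranges. Ranges compare cells of 1 library with one another and are no replicates, and the part of interferon in the differences was not tested.

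**Figure D5:**
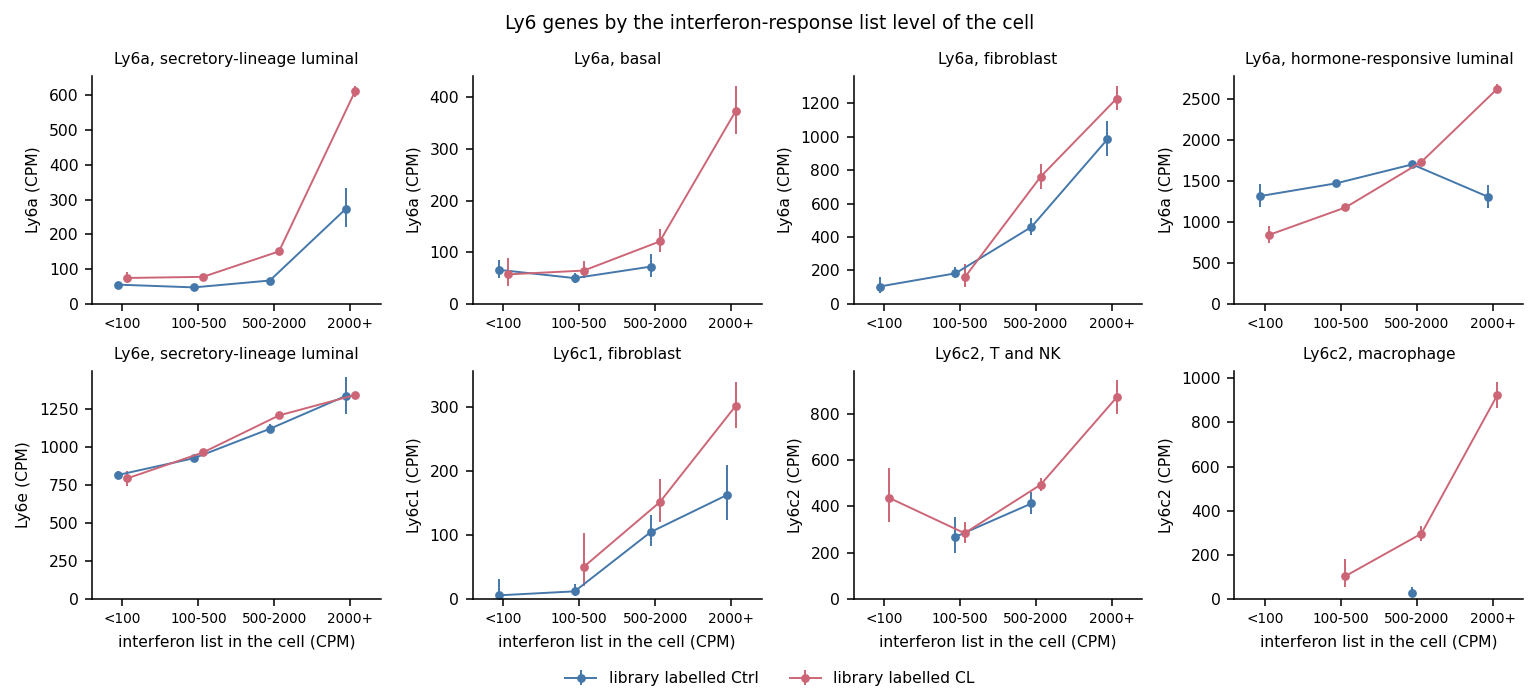
Level of Ly6 genes (vertical axis, CPM) in cells grouped by their summed level of 18 interferon response genes (horizontal axis, 4 ranges in CPM), for the libraries labelled Ctrl and CL, with exact 95% intervals for counting error. Ly6a in secretory luminal-like cells of CL is 74.4 CPM in the lowest range and 611 CPM in the highest, and Ly6e in the same class is nearly equal between the libraries within each range.

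The genes with the most similar pattern to each member were sought over 14 profiles, the 7 classes in both libraries, by the Pearson correlation of log2(CPM + 10) among 5799 genes. Profiles of 1 class share cell type and those of 1 library share depth and free RNA, so these values describe likeness alone. Ly6d was most like Prlr, the prolactin receptor gene (0.99), Wfdc2 (0.98) and the fatty acid receptor gene Ffar4 (0.98). Ly6c2 was most like the integrin genes Itgb7 (1.00) and Itga4 (0.98) and like Ms4a6b (0.99). Ly6c1 was most like Sav1 (0.97), Bmp4 (0.96), a growth factor gene, and Fkbp1a (0.96). No gene came as near to Ly6a, where Slc50a1 (0.87), Nupr1 (0.86) and Stub1 (0.84) led, and Ly6e was most like Ssu72 (0.92), Wdr83os (0.92) and Fibp (0.91). Between members the correlation was 0.77 for Ly6a and Ly6d, 0.70 for Ly6a and Ly6c1 and -0.46 for Ly6c1 and Ly6c2.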

How the data were processed

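Mammary cells from 1 Ctrl and 1 CL library were profiled with 10x Genomics 3′ chemistry. The authors deposited raw UMI counts per gene for all barcodes. The submitters' notes name Cell Ranger 2.1.1 and mm10, the deposited file header gives Cell Ranger 4, and the labels name the 3′ v2 kit. Barcodes with most UMIs were taken, as many as each library's deposited list holds (7217 and 10555), with at least 500 genes and at most 15% mitochondrial UMIs. Scrublet (scikit-image 0.26.0 for its threshold) marked 360 Ctrl barcodes and, by its own threshold, 0 CL barcodes. It had thus not worked for CL, the Ctrl threshold was used for both, and 5.72% and 5.45% were removed. Cells of both libraries were clustered together (scanpy 1.11.5, 2000 variable genes without the members, 30 components, 15 neighbours, Leiden resolution 1.0) and clusters were named from markers of 14 classes with at least 3 detected. UMIs were summed per class and library into CPM with exact Poisson intervals, and ratios were given exact binomial ones. Thinning drew UMIs without replacement to the 10th percentile of depth in the shallower library, leaving out shallower cells, and shares have Clopper-Pearson intervals. PCR and droplet sampling are covered by none of these intervals, which are for counting error only.

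Named genes are the members, the 3 most alike to each in pattern, the 3 of the interferon list with the largest ratio per described class, and Ly6/uPAR family genes of at least 50 CPM in a class of at least 100 cells per library; Gpihbp1, Ly6i and Ly6k were chosen after their values were seen, and 1 gene that the rule names is not reported here. Members and lists were chosen with earlier results of these data known. The lists were the interferon response, the Ly6/uPAR family and GPI anchor synthesis. Each ratio was recomputed with other filters, cluster resolutions, namings and scalings, among them TMM factors from edgeR 4.0.16 in R 4.3.3. On simulated counts for secretory luminal-like cells, run on 700 genes, the intervals covered the true ratio for 94.4% of unchanged genes, and 0 of the unchanged genes passed 2-fold. These counts were Poisson, the model behind the intervals, with no variation between libraries, so they check the calculation alone. Gene positions are from GENCODE, and promoters from RefSeq.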

Additional observations from a re-analysis of the deposited data

Results flagged for a closer look

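For 2 members, Ly6c1 and Ly6d, ratios beyond counting error were opposite in different classes. Ly6c1 had a log2 ratio of CL over Ctrl of 1.83 [1.23, 2.48] in secretory luminal-like cells, from 27 UMIs in Ctrl and 139 in CL, levels of 0.91 and 3.21 CPM that are far under the 50 CPM needed for a comparison by fold. Without cluster 8, almost all from CL, there were 26 and 36 UMIs and the ratio was 0.33 [-0.44, 1.12]. The ratio was -1.12 in hormone-responsive luminal-like cells, where Ly6c1 had more UMIs, 1418 and 875. In fibroblast-like cells the Ly6c1 ratio was 1.63 [1.35, 1.92], from 143 and 376 UMIs, and it was 1.71 in basal-like and 0.42 in endothelial-like cells. Ly6d had a log2 ratio of 2.82 in endothelial-like cells and of -0.11 in secretory luminal-like cells, and its endothelial level stayed under that expected from free RNA. Its ratio was also positive in basal-like (0.58) and fibroblast-like cells (0.72). None of these differences between classes was tested, since each group had 1 library.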

How the results depend on the processing

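Of 346 alternative log2 ratios of CL over Ctrl, 328 lay within 1.5-fold of the reported ratio, and 263 lay inside its interval for counting error. Of reported ratios beyond counting error, 5 changed sign under an alternative. For Ly6a in secretory luminal-like cells (2.15) the mean of each cell's CPM gave 1.88 and leaving out cluster 8 gave 1.18. In basal-like cells (1.38) a minimum of 200 genes gave 0.91, doublets kept 0.91 and cell means 0.96. In fibroblast-like cells (1.19) naming each cell alone gave 1.34, a minimum of 1000 genes 1.01, cell means 0.92 and subtracting free RNA 1.54. Ly6c1 in fibroblast-like cells (1.63) was 2.097 with each cell named alone, and in endothelial-like cells (0.42) it was 0.94 so named and -0.16 without cluster 19, where the sign turned. Ly6c2 in macrophage-like cells (3.53) was 1.98 without cluster 0. Ly6e in secretory luminal-like cells (0.32) was 0.35 by TMM, 0.34 with free RNA subtracted and 0.29 without cluster 8.

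In hormone-responsive luminal-like cells the values for Ly6a (0.01), Ly6d (0.03) and Ly6e (0.10) followed the settings. Leiden resolution 0.5 gave 0.14, 0.14 and 0.13, resolution 2.0 gave 0.14, 0.13 and 0.12, 1000 genes gave 0.13, 0.14 and 0.12, and 200 genes gave 0.059, 0.055 and 0.12. Naming cells alone gave 0.094 for Ly6a and 0.14 for Ly6d, no mitochondrial limit 0.12 and 0.14, and doublets kept 0.045 and 0.046. A limit of 5% mitochondrial UMIs gave 0.017 for Ly6d and 0.14 for Ly6e, cell means 0.055 and 0.061, and TMM 0.040 for Ly6d. Without cluster 13, of the highest doublet score, the values were 0.12, 0.13 and 0.12, and without cluster 10 they were -0.34, 0.098 and 0.062. Subtracting free RNA gave -0.39, -0.35 and -0.27, with the sign turned for each, and rests on an upper estimate from secretory markers in these cells. The sign also turned for Ly6d in fibroblast-like cells at 1000 genes (-0.058) and in secretory luminal-like cells named alone (0.016). The causes were not tested.

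Shares of cells followed depth. For Ly6a in Ctrl and CL, thinning to the 25th percentile gave 95.8% and 97.4% of hormone-responsive and 28.3% and 48.4% of secretory luminal-like cells and 16.7% and 24.3% of basal-like cells. At least 2 UMIs were in 84.1% and 86.8%, 4.00% and 19.5%, and 2.01% and 4.25% of the 3 classes, and without thinning 1 UMI was in 95.5% and 96.4%, 40.6% and 57.8%, and 36.0% and 36.9%. For Ly6d the 25th percentile gave 100.0% of Ctrl hormone-responsive, 59.8% and 62.6% of secretory and 35.5% and 39.3% of basal-like cells. At least 2 UMIs were in 99.3% and 99.9%, 23.4% and 24.6%, and 4.02% and 5.25%, and without thinning the shares were 99.3% and 99.8%, 72.7% and 73.4%, and 61.8% and 57.2%. At a minimum of 200 CPM, 2.52% of genes in hormone-responsive luminal-like cells were past 2-fold, against 1.38%.

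No paired analysis was possible because each group had 1 library, and for the same reason no replicate could be left out. The settings that leave out clusters were chosen after seeing the data. In hormone-responsive luminal-like cells the reported ratios of the 3 members lie inside the range of settings, and that of Ly6a also inside counting error. Endothelial-like and macrophage-like classes held 53 to 273 cells per library.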

Other observations

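The rest of the Ly6/uPAR family, 35 genes found of 36 listed, was led by Plaur, the urokinase receptor gene, and Lypd3, both highest in secretory luminal-like cells. Plaur stood there at 713 CPM in Ctrl and 562 CPM in CL, a log2 ratio of -0.34 [-0.37, -0.32], and Lypd3 at 441 and 550 CPM, a log2 ratio of 0.32 [0.29, 0.35]. In hormone-responsive luminal-like cells Lypd3 held 47.0 and 90.9 CPM, a log2 ratio of 0.95. Since 1 or 2 family genes could be compared per class, no count of them is read. Gpihbp1, whose product carries lipoprotein lipase across capillary walls, was found in endothelial-like cells, at 130 CPM (35 UMIs) and 199 CPM (100 UMIs).

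Of the other coding genes between the members on chromosome 15, Ly6i and Ly6k are given here, chosen after their values were seen. Ly6i, which lies between Ly6e and Ly6a, had 1 UMI in Ctrl and 70 UMIs in CL macrophage-like cells, or 2.2 and 31.1 CPM, a log2 ratio of 3.82 [1.29, 9.14]. Ly6k, which lies between Ly6d and Ly6e, stood at 16.7 and 35.9 CPM in hormone-responsive luminal-like cells, a log2 ratio of 1.10 [0.98, 1.23]. In their cluster 10 alone it had 7.07 and 59.2 CPM. Of the 26 genes for GPI anchor synthesis and transfer, by which most Ly6 proteins reach the surface, 1 to 5 could be compared per class, too few to read a count from, and their summed level in secretory luminal-like cells came to 591 CPM (Ctrl) and 599 CPM (CL).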
